A study of Mus musculus with 12 samples.

Results

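The genes described here encode the extracellular matrix, the enzymes that cut it and the receptors that hold cells to it. They are all rows of the deposited value table whose symbol starts with Col, Lam, Itg, Mmp, Timp, Thbs or Adam followed by a letter or digit, without Mmp8 and without the Lamp, Lamtor and Colec genes. The rule took 37 of the 754 genes measured: 10 collagens, 2 laminin chains, 8 integrin chains, 6 matrix metalloproteases, 1 inhibitor of metalloproteases (Timp3), 2 Adam genes and 8 Adamts genes. The rule matched 0 thrombospondin (Thbs) rows of the table used here. The study took male mice 3 days after surgery, either ICH (an abbreviation the labels do not spell out) or sham, and measured RNA of cells sorted as hematopoietic stem cells (HSCs) out of femur marrow. Wild-type mice were C57/BL6, and the other mice lacked the adrenergic receptor beta 3 (Adrb3-/-). No cell type is named to which the loss of Adrb3 was limited, and the gate of the sort is not stated in the labels. The combination of 2 genotypes and 2 surgeries gave 4 groups of 3 libraries. With 6 mice per genotype in the design text, a library was read as 1 mouse, and the p-values below measure the spread between these libraries. The genotype labels were not checked against Adrb3 RNA, which was not analysed here.

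Collagens and laminins are the structural proteins of the matrix and of basement membranes, and in marrow they are made mainly by stromal, bone-forming and vessel cells. Integrins are receptors made of an alpha and a beta chain. Itga4 with Itgb1 forms VLA-4, which holds blood stem and progenitor cells to Vcam1 on stromal cells and macrophages, and Itgb2 pairs with Itgal (LFA-1), Itgam (Mac-1) or Itgax on mature white blood cells. Matrix metalloproteases and Adamts proteases cut matrix proteins, Adam proteases also cut proteins off the cell surface, and Timp3 inhibits members of all of these protease families. Mmp9 and Adam8 are both stored in neutrophils.

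Values are whole counts multiplied by 1 factor per library, and a gene with under 20 counts carries the value 20 whatever the factor. A value is given below without a further unit, and it serves to compare 1 gene between libraries, not 1 gene with another. Wild-type sham replicate 1 was a failed reaction: its positive control POS_A gave 79 counts, against 6278 to 44207 in the other libraries, and its scaling turned a single count into 15.5. It was left out, which leaves 11 libraries with 110740 to 556407 counts over all genes and 2 libraries in the wild-type sham group. The background of a library (the mean plus 2 SD of its negative controls) lay between 17.9 in Adrb3-/- sham replicate 3 and 123.6 in Adrb3-/- ICH replicate 1. In Adrb3-/- ICH replicate 2, 20 counts were worth 103, and the members at 20 in that library could lie anywhere below this; in the other libraries 20 counts were worth 23.0 to 43.0. Against the HSC label, all 8 measured neutrophil markers were above background in all 11 libraries, and 2 of the 4 measured HSC and progenitor markers were (Cd34 and Flt3, with Kit and Gata2 above it in 10 of 11). The summed neutrophil markers ranged from 97272 in Adrb3-/- sham replicate 3 to 526487 in Adrb3-/- ICH replicate 1, so these libraries stand farthest apart in that measure. Most of this sum is S100a8 and S100a9. In such bulk RNA, fewer cells of a type and less RNA per cell cannot be told apart.

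Promoter sequences are shown for 5 members: Itgam and Adam8, which had the same highest and the same lowest library, Itga4 and Itgb1, the VLA-4 chains, which were highest in another library, and Mmp13, as an example of the clustered metalloprotease genes. Each window runs 5′ to 3′ from 250 bases before the annotated start to 50 bases after it, from RefSeq on GRCm38.p6. Capitals mark GAGGAA (the core letters bound by Pu.1, the factor of myeloid genes) or TGANTCA (the letters bound by AP-1), on either strand.
Itgam (chr7:128062390-128062689, plus strand): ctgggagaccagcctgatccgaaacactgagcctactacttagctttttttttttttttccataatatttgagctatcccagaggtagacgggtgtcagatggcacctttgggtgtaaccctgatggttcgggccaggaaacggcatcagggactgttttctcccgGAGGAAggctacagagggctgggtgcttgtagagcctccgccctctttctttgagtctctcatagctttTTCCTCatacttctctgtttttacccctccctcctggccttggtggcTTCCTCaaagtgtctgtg
Adam8 (chr7:139992513-139992812, minus strand): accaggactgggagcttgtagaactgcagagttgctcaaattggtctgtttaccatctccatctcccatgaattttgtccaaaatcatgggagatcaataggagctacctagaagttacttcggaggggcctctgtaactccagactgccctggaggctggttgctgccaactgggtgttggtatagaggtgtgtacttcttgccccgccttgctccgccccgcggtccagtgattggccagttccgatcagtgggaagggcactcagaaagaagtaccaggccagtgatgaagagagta
Itga4 (chr2:79255176-79255475, plus strand): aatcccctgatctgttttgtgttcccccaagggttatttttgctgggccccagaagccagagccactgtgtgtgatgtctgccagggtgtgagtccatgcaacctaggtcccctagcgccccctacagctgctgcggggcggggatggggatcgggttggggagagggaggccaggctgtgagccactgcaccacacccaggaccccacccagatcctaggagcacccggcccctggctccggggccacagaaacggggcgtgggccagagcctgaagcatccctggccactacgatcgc
Itgb1 (chr8:128685404-128685703, plus strand): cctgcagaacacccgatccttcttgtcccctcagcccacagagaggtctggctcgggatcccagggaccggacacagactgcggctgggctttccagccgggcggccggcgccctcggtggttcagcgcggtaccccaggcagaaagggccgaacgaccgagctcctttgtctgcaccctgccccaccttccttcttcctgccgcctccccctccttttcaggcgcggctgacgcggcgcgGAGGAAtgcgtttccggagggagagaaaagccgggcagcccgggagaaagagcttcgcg
Mmp13 (chr9:7272264-7272563, plus strand): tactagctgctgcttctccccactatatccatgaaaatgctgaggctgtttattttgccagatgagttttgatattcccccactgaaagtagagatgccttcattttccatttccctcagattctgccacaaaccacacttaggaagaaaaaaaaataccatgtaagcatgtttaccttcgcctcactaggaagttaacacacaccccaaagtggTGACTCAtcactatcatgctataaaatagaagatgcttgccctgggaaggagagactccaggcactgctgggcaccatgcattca

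The Itgam window held GAGGAA or its reverse complement 3 times, which 0.685% of all 32851 promoter windows do. The Itgb1 window held it once, as 28.3% of all windows do at least once, and the Adam8 and Itga4 windows did not hold these letters. Of the 37 members 30 matched the RefSeq windows, and 10 of these 30 genes had GAGGAA in a window, among them 4 of 6 integrin genes (Itga5, Itgam, Itgb1, Itgb7). TGANTCA was found in a window of 6 member genes, and 4 of these were the 4 matched metalloproteases Mmp1a, Mmp10, Mmp12 and Mmp13, whereas 7.81% of all windows hold it. In no window did a match of one motif overlap a match of the other. These 4 genes lie in 1 cluster on chromosome 9, and Mmp10 is next to Mmp1a as Mmp12 is next to Mmp13, with 0 protein-coding genes between. Itgam and Itgax are also neighbours, on chromosome 7. Col4a1 and Col4a2 stand next to each other on chromosome 8, and their windows share 78 of 300 bases. A match describes letters in a window and is not a measured binding site.

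Most of these genes were close to the detection limit. Only 8 of the 37 members (21.6%) were above background in all 11 libraries, compared with 339 of the 754 genes (45.0%). The values at 20 made up 82 of the 407 member values (20.1%), against 8.31% over all genes, and 22 members were at 20 in at least 1 library. By family, the share at 20 was 24.5% of collagen values (27 of 110), 59.1% of laminin values (13 of 22), 6.82% of integrin values (6 of 88), 24.2% of Mmp values (16 of 66), 4.55% of Adam values (1 of 22) and 21.6% of Adamts values (19 of 88). No Timp3 value was at 20. The integrins were thus the family with most members above background in all 11 libraries, 6 of 8 (Itga4, Itgal, Itgam, Itgb1, Itgb2 and Itgb7), and the other 2 such members were Mmp9 and Adam8. No collagen, laminin or Adamts gene was above background in all 11.

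**Figure D1:**
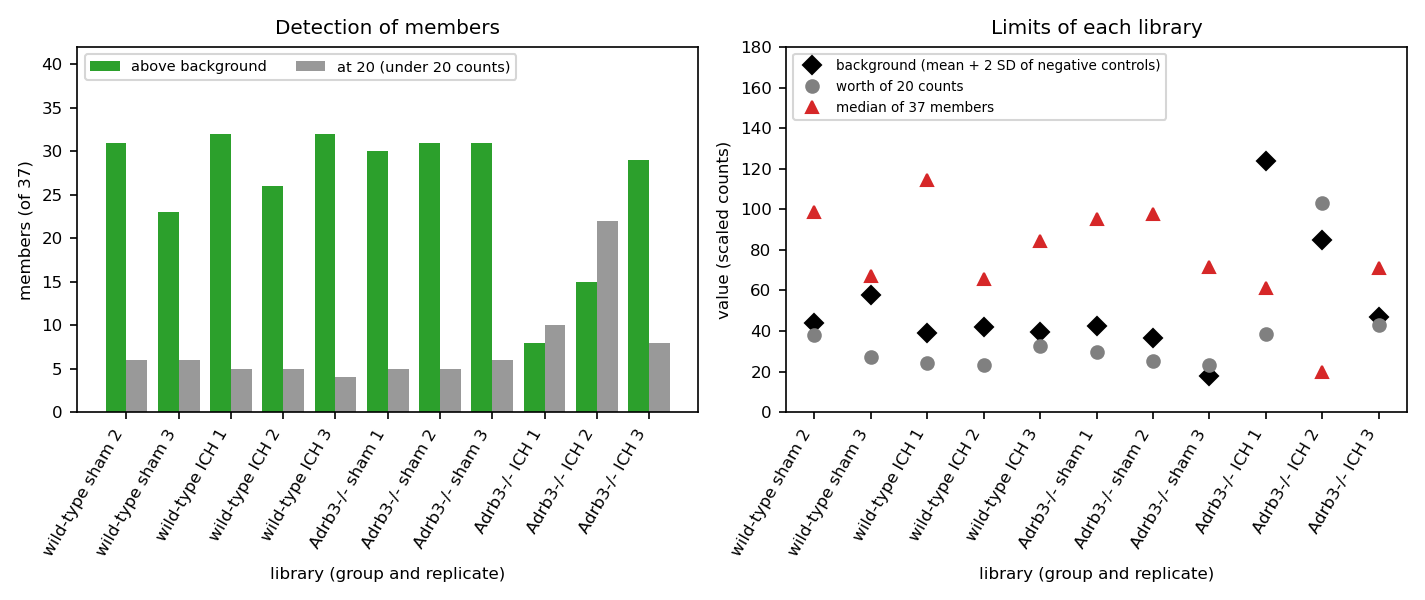
Left, the number of the 37 members above background (green) and at 20 (grey) in each of the 11 libraries. Right, the background, the worth of 20 counts and the median member value per library, in scaled counts; in Adrb3-/- ICH replicate 2 the median member is at 20, and in Adrb3-/- ICH replicate 1 the background of 123.6 exceeds the median of 61.4.

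Detection also differed between libraries. In the 8 libraries of the other 3 groups, 23 to 32 members were above background and 4 to 6 were at 20. Among the Adrb3-/- ICH libraries, replicate 1 had 8 members above background and 10 at 20, replicate 2 had 15 and 22, and replicate 3 had 29 and 8. Fewer members were thus measured above background in the first 2 of these libraries, and this stands beside each lower value of a dim member reported below for Adrb3-/- ICH.

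In all 11 libraries 3 members were at 20: Adamts9, the fibril-associated collagen Col12a1 and the laminin chain Lamb3. Mmp10 (stromelysin 2) reached 42.2 in Adrb3-/- ICH replicate 1 alone, under that library's background. Col11a1, a cartilage collagen, reached 71.3 in wild-type ICH replicate 3 alone and was at 20 in the other 10. Itgax, the alpha chain of dendritic cells and macrophages, was at 20 in 6 libraries. It lay at 48.7, 30.0 and 37.3 in wild-type ICH and at 34.2, 35.6 and 20 in Adrb3-/- sham, and at 20 in both other groups. Only the 48.7 was above its library's background. In the groups at 20, 20 counts were worth 27.3 to 103, so no group difference is read from these Itgax values. Mmp10, Col11a1 and Itgax, with Adamts9, Adamts12, Adamts14, Col12a1, Lamb2 and Lamb3, had a mean over the 11 libraries under the mean background of 52.2, and they were not tested. The other 28 members were tested with all 674 genes that passed this filter.

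The integrin chains of mature white blood cells varied most within the Adrb3-/- groups. Itgam, the alpha chain of Mac-1, lay at 808 and 855 in wild-type sham, 521, 610.5 and 488 in wild-type ICH, 689, 490.4 and 234 in Adrb3-/- sham, and 1147, 428 and 471 in Adrb3-/- ICH. Both wild-type sham libraries lay above all wild-type ICH and all Adrb3-/- sham libraries. The Adrb3-/- ICH libraries ran from 428 to 1147, within 234 to 1147 over all 11. Itgb2, the beta chain shared by the leukocyte integrins, lay at 1089 and 876 in wild-type sham, 794, 850.1 and 742 in wild-type ICH, 1004, 793 and 585 in Adrb3-/- sham, and 1172, 656 and 678 in Adrb3-/- ICH. Itgal, the alpha chain of LFA-1, lay at 351 and 328, then 299.6, 301 and 263, then 285, 272 and 179, and then 505, 294 and 267 in the same order of groups. All of Itgam, Itgb2 and Itgal were lowest in Adrb3-/- sham replicate 3 and highest in Adrb3-/- ICH replicate 1. Itgb7, which pairs with Itga4 in gut-homing lymphocytes, lay at 93.0 to 175 in 10 libraries and at 292 in Adrb3-/- ICH replicate 1.

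The VLA-4 chains and Itga5 were highest in other libraries. Itgb1, the beta chain of the matrix-binding integrins, lay at 719 and 857 in wild-type sham, 837, 696 and 682 in wild-type ICH, 859.9, 927 and 1039 in Adrb3-/- sham, and 802, 867 and 1164 in Adrb3-/- ICH. Itga4 lay at 586 and 776, then 705, 602 and 562, then 651, 748 and 894, and then 709.9, 625 and 919 in the same order of groups. Both chains were highest in Adrb3-/- ICH replicate 3 and second highest in Adrb3-/- sham replicate 3. The summed HSC and progenitor markers were also highest in these libraries, at 3403 and 2580, and lowest in Adrb3-/- ICH replicate 1 at 553. The chains were not lowest there (709.9 for Itga4 and 802 for Itgb1). Both were lowest in wild-type ICH replicate 3 (562 and 682), where the marker sum was 765. The part of these markers in the values of the chains was not tested. Itga5, the fibronectin receptor chain, lay between 104 in Adrb3-/- ICH replicate 1 and 196 in wild-type ICH replicate 1. Its wild-type ICH values (196, 152 and 154) all exceeded its Adrb3-/- ICH values (104, 124 and 148), by a narrow gap.

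**Figure D2:**
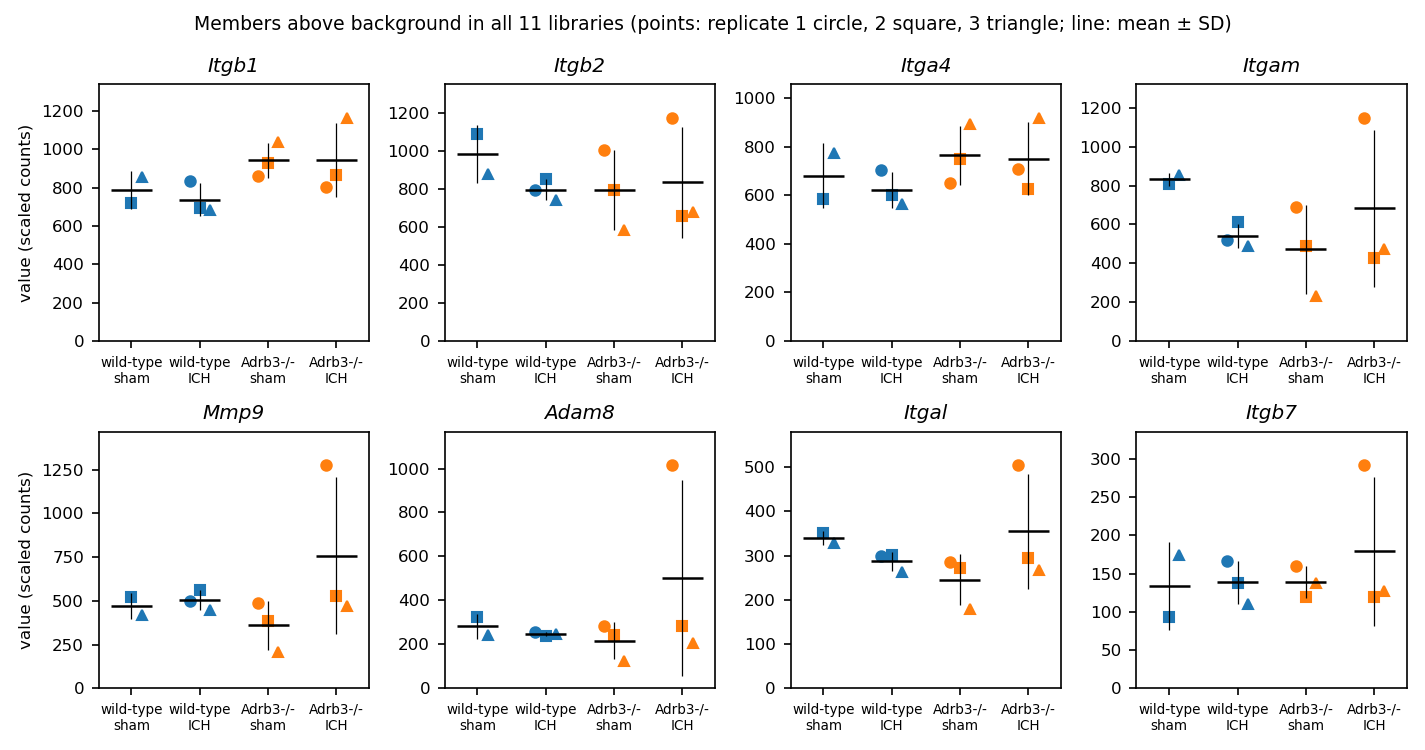
Values (scaled counts, linear axes from 0) of the 8 members above background in all 11 libraries, by group; points are libraries (replicate 1 circle, 2 square, 3 triangle), the bar is the mean and the line ± 1 SD (n = 2 in wild-type sham, otherwise 3). Adrb3-/- ICH replicate 1 is the highest point for 6 of the 8 genes.

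Mmp9 and Adam8, the neutrophil-stored proteases, had the same highest and the same lowest library as Itgb2, Itgam and Itgal. Mmp9 (gelatinase B) lay at 524 and 417 in wild-type sham, 499, 562 and 449 in wild-type ICH, 487, 384 and 209.9 in Adrb3-/- sham, and 1276, 527 and 473 in Adrb3-/- ICH. Adam8 lay at 323 and 242, then 256, 237 and 248, then 284, 244 and 123, and then 1015, 284 and 207 in the same order of groups. For both genes replicate 1 of Adrb3-/- ICH stood far above all other libraries, at 4.09 times the median of the 11 libraries for Adam8, while the other Adrb3-/- ICH replicates lay within the range of the remaining groups. Of the 8 members above background throughout, 6 had their highest value in Adrb3-/- ICH replicate 1, as 32.2% of the 339 such genes of the table did. To be among these genes, a gene had to exceed that library's background of 123.6, the highest of the 11, which favours genes high there. Another 5 of the 8 had their lowest value in Adrb3-/- sham replicate 3 (Itgam, Itgb2, Itgal, Mmp9 and Adam8), against 25.1% of the 339. Of the 8 neutrophil markers, all 8 were lowest in Adrb3-/- sham replicate 3 and 4 were highest in Adrb3-/- ICH replicate 1. Macrophage markers ran otherwise: 10 of the 11 above background in every library were highest in Adrb3-/- sham replicate 3. The part of these marker differences in the members' values was not tested.

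Among the collagens, Col1a2 (a chain of type I collagen, the main collagen of bone) differed most between libraries. It lay at 209 and 53.3 in wild-type sham, 127, 114 and 1094 in wild-type ICH, 98.0, 111 and 63.4 in Adrb3-/- sham, and 72.9, 20 and 55.9 in Adrb3-/- ICH. The 1 high value in wild-type ICH replicate 3 rested on 675 counts, where the other libraries had at most 110. Col11a1 was detected in the same library alone, and Col10a1 was highest there. The summed stromal and endothelial markers stood at 838 there, against 1026 and 839 in the other wild-type ICH libraries and 835 to 1508 over all 11. Single markers went both ways among the wild-type ICH libraries. Cxcl12 was highest in replicate 3 (407 against 320 and 333), and Angpt1 (178 against 328 and 233), Pdgfra and Cdh5 were lowest. The summed mast cell, basophil and eosinophil markers were highest in that library, at 7993 against 1124 to 7065 elsewhere. The part of either marker list in the Col1a2 value was not tested.

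Col14a1, a collagen that binds the surface of collagen fibrils, lay at 163 and 60.1 in wild-type sham, 144, 65.7 and 76.2 in wild-type ICH, 139.6, 136 and 268 in Adrb3-/- sham, and 69.1, 20 and 51.6 in Adrb3-/- ICH. All Adrb3-/- sham libraries exceeded all Adrb3-/- ICH libraries, also when the value at 20 is read as its upper limit of 103. Col10a1, the collagen of growth plate cartilage, lay at 98.7 and 90.2, then 114, 58.8 and 169, then 59.4, 96.6 and 69.2, and then 46.1, 20 and 47.3. Col3a1, which builds fibres with type I collagen, lay at 60.7 and 41.0, then 91.3, 54.1 and 51.9, then 72.8, 103 and 66.9, and then 20, 20 and 71.0. For Col10a1 all Adrb3-/- ICH libraries read lower than all Adrb3-/- sham libraries as deposited, but the groups overlap once the value at 20 is taken as an upper limit. For Col3a1 Adrb3-/- ICH replicate 3 lay among the sham values, so the groups overlap as deposited. The basement membrane chains Col4a1 and Col4a2 had means of 56.5 and 143 over the 11 libraries, the vessel collagen Col15a1 133 and the skin collagen Col17a1 105, and the last 3 had no value at 20. Lamb2, the other laminin chain, ranged from 41.5 to 96.2 in the 9 libraries where it was not at 20.

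**Figure D3:**
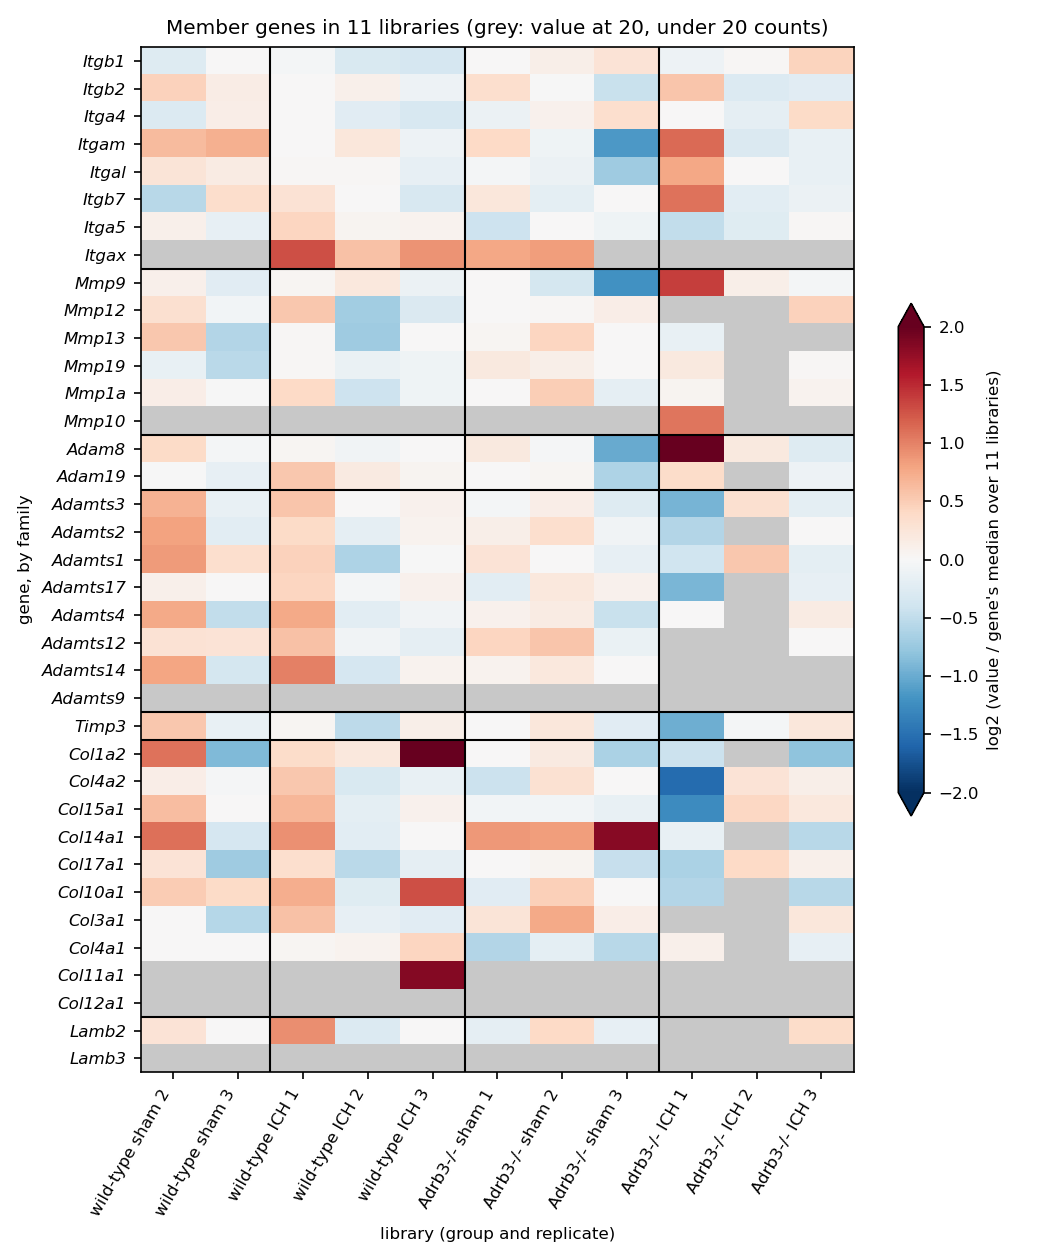
Each member (rows, by family) in each of the 11 libraries (columns, by group), as log2 of the value over the gene's median; red is above and blue below the median, and grey marks a value at 20. Grey fills 22 of 37 cells in Adrb3-/- ICH replicate 2 and 4 to 10 in the others, and Col1a2 in wild-type ICH replicate 3 stands out in red.

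The collagenases and the Adamts proteases were dim throughout. Mmp13 (collagenase 3) lay at 98.7 and 45.1 in wild-type sham, 69.4, 41.5 and 68.1 in wild-type ICH, 69.8, 91.5 and 68.1 in Adrb3-/- sham, and 61.4, 20 and 20 in Adrb3-/- ICH. The macrophage elastase Mmp12, with Mmp19 and Mmp1a, had means of 60.6, 58.6 and 52.8 over the 11 libraries, and each was at 20 in Adrb3-/- ICH replicate 2. Mmp12 was also at 20 in Adrb3-/- ICH replicate 1. Adamts17 lay at 85.4 and 79.3, then 107, 77.2 and 84.3, then 68.3, 91.5 and 84.2, and then 42.2, 20 and 71.0. Outside Adrb3-/- ICH its 8 values kept within a narrow range. Adamts3, which trims the end of procollagens and had no value at 20, lay at 188 and 105 in wild-type sham, 170, 116 and 123 in wild-type ICH, 113, 127 and 96.9 in Adrb3-/- sham, and 61.4, 145 and 101 in Adrb3-/- ICH. Its groups overlap in all 4 pairs compared below. Adamts1, an aggrecan-cutting protease, ranged from 53.0 to 146. Timp3 lay at 192 and 119, then 136, 92.2 and 143, then 132, 155 and 113, and then 67.2, 129 and 155, with no separation of groups. Adam19 ranged from 62.3 to 138 in the 10 libraries where it was not at 20.

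ICH and sham were compared first in Adrb3-/- mice. In limma's moderated test on log2(value + 1), no member reached an adjusted p (Benjamini-Hochberg over 674 genes) under 0.05, whereas 7 of the 674 genes (1.04%) did. At an unadjusted p under 0.05, 1 member was higher after ICH, where 1.34% of all genes were, and 5 of 28 were lower, where 9.5% of all genes were. The higher one was Mmp9, with a log2 change of 1.004 (SE 0.41, 95% interval 0.09 to 1.92, unadjusted p = 0.0344, adjusted p = 0.428 in limma). It was 0.55 without Adrb3-/- ICH replicate 1 and 0.66 without Adrb3-/- sham replicate 3. With both libraries left out, an alternative chosen after seeing the data, Mmp9 stood at 0.21. Adam8, Itgam and Itgal, singled out after their values were seen, had log2 changes of 0.93 (SE 0.53), 0.52 (SE 0.44) and 0.50 (SE 0.29). Itgb2, with the same highest and lowest library, changed by 0.05 (SE 0.29). With both libraries out, Adam8 was at -0.12 and Itgam at -0.37, so their sign rests on these libraries. Over the 8 bright members the median change was 0.37, and with both libraries out it was -0.06. Over all 339 bright genes the median was 0.01, with 170 of them positive, and the 8 neutrophil markers were all positive with a median of 0.68.

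The 5 lower members were dim. Col14a1 had a log2 change of -2.02 (SE 0.54, unadjusted p = 0.00361, adjusted p = 0.135 in limma) between Adrb3-/- ICH and Adrb3-/- sham. Replacing each value at 20 by what 20 counts were worth in its library gave -1.25 (adjusted p = 0.392). It was also the 1 member whose groups did not overlap in that direction, as in 6.82% of all genes, and no member was apart in the other direction (1.63% of all genes). Mmp13 and Col3a1 changed by -1.35 (SE 0.46, adjusted p = 0.300) and -1.35 (SE 0.47, adjusted p = 0.319), and Col10a1 and Adamts17 by -1.04 (SE 0.43, adjusted p = 0.428) and -1.02 (SE 0.39, adjusted p = 0.376). These 4 stood at -0.22, -0.27, -0.27 and -0.25 with values at 20 raised to their worth, so most of the deposited difference lay in the values at 20. Without Adrb3-/- ICH replicate 1, 1 member passed the adjusted threshold, Mmp13 at -1.87 (adjusted p = 0.0376 in limma), with 23 of all 674 genes. Both Adrb3-/- ICH values of Mmp13 left in that fit were at 20. Without Adrb3-/- ICH replicate 3, 3 members passed: Col3a1 at -1.94, Mmp12 at -1.71 and Adamts17 at -1.44, with 50 of all 674 genes. The Adrb3-/- ICH values left were 20 and 20 for Col3a1 and Mmp12, and 42.2 and 20 for Adamts17. Equal values at 20 hide the spread between libraries.

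**Figure D4:**
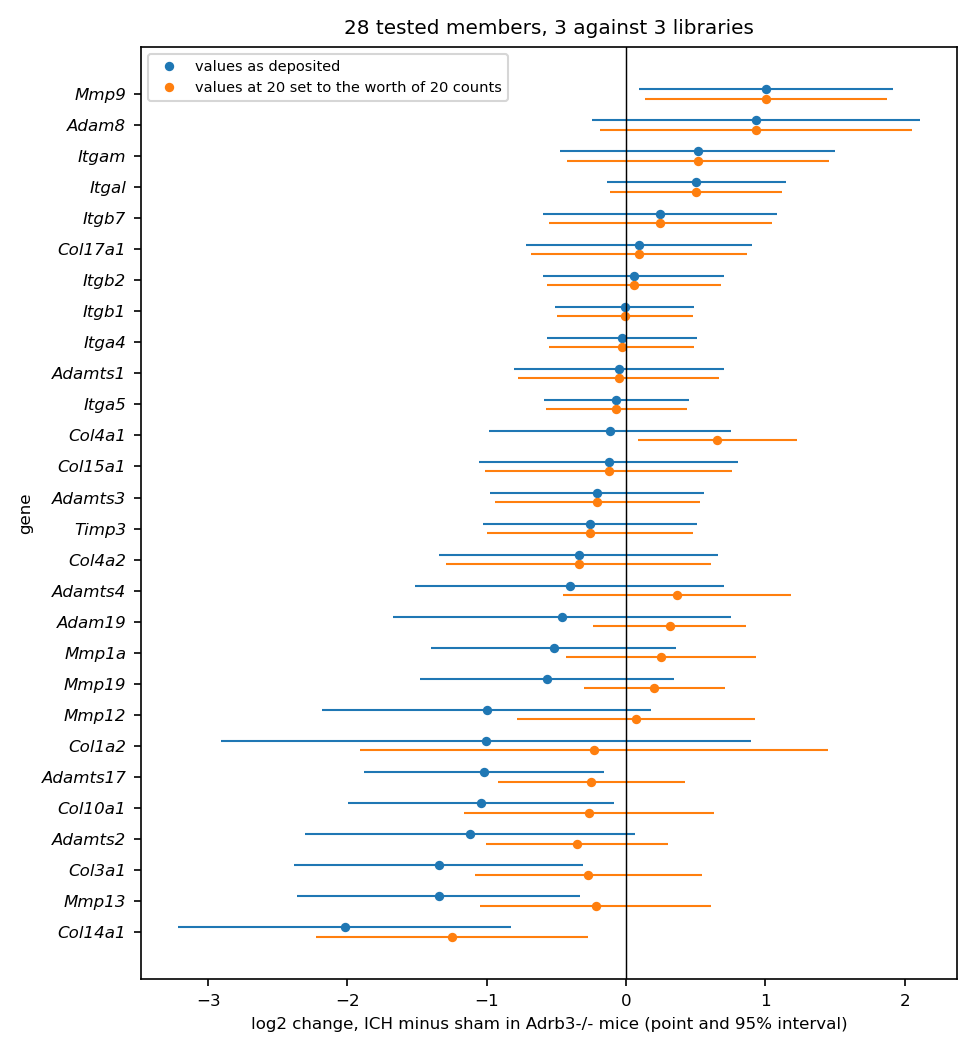
Log2 change (ICH minus sham) with its 95% interval for the 28 tested members in Adrb3-/- mice, from the values as deposited (blue) and with each value at 20 raised to that library's worth of 20 counts (orange). Mmp9 at the upper end and Col14a1 at -2.02 at the lower end bound the range, and dim genes such as Mmp13 move from -1.35 to -0.22 between the settings.

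As a group, 19 of the 20 dim members read lower after ICH in Adrb3-/- mice, with a median log2 change of -0.49. Dim here means not above background in all 11 libraries, which takes in genes that fell short in Adrb3-/- ICH replicate 1 alone, such as Itga5. Of the 335 dim genes of the whole table, 283 read lower and the median was -0.44, so the members' shift is close to that of all genes at this level. With values at 20 raised to their worth, the median of the dim members was -0.17, 13 of 20 being lower. Col4a1 is an example of a member whose sign turned, from -0.12 to 0.66 (SE 0.26, adjusted p = 0.548). By family, 7 of 8 tested collagens, 4 of 5 Mmp genes, 5 of 5 Adamts genes and 3 of 7 integrins had a negative change as deposited. Over all genes tested, 452 of 674 had one.

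In wild-type mice, no member passed the adjusted threshold between ICH and sham, and no member had an unadjusted p under 0.05; over all 674 genes both shares were 0% in limma. The median 95% interval of a member spanned 1.02 log2 units to either side, with 2 sham libraries. The largest shift among the integrins was that of Itgam, which averaged 832 ± 33.2 (SD, n = 2) in sham and 540 ± 63.4 (SD, n = 3) after ICH, a log2 change of -0.63 (SE 0.50). Itgam, Itgb2 and Itgal were lower in every ICH library than in every sham library, and 14.1% of all genes were. Mmp19, Adam19 and Col4a1 were higher in every ICH library, and 3.12% of all genes were. The summed neutrophil markers also lay lower after ICH, at 262982 to 333124 against 456525 and 467699 in sham. S100a8 and S100a9 make up most of that sum. By marker, 6 of 8 were lower after ICH, 4 of them not overlapping, and 2 were higher. The part of these markers in the integrin values was not tested. The sign of small changes followed the scaling: 12 of 28 members read higher as deposited, and 19 of 28 after centring each library on its median gene, which moved the median of all genes from -0.11 to 0.04.

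Loss of Adrb3 was compared in sham mice next. No member passed the adjusted threshold, as no gene did (0%), and no member had an unadjusted p under 0.05 in limma, where 4.75% of all genes had (2.97% higher and 1.78% lower). Itgam averaged 471 ± 228 (SD, n = 3) in Adrb3-/- sham, a log2 difference of -0.95 (SE 0.50) from wild type. The groups did not overlap for 5 members that were lower in Adrb3-/- sham (Itgam, Itgal, Adamts1, Col4a1 and Col15a1, with 16.3% of all genes) and for 3 that were higher (Itgb1, Col3a1 and Mmp19, with 10.4% of all genes). Itgb1, for example, lay at 859.9 to 1039 in Adrb3-/- sham and at 719 and 857 in wild-type sham, separated by a narrow gap. The summed neutrophil markers were 97272 to 374481 in Adrb3-/- sham against 456525 and 467699 in wild-type sham, with 8 of 8 markers lower and 5 of them not overlapping. The summed macrophage markers were 8879 to 16478 against 3181 and 6257. The part of either list in these differences was not tested.

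After ICH, Adrb3-/- libraries were compared with wild-type libraries. No member passed the adjusted threshold, as no gene did (0%), while 3 dim members were lower at an unadjusted p under 0.05 in limma, where 9.5% of all genes were, and no member was higher (1.19% of all genes). Col1a2 had the widest difference, -2.50 on the log2 scale (SE 0.86, unadjusted p = 0.0149, adjusted p = 0.400). It was -1.44 (unadjusted p = 0.0519) without wild-type ICH replicate 3, the library with the high Col1a2 value, and -1.73 with the value at 20 raised to its worth. Col10a1 differed by -1.54 (SE 0.43, adjusted p = 0.400) and Adamts17 by -1.15 (SE 0.39, adjusted p = 0.400). With values at 20 raised to their worth they stood at -0.77 and -0.38. Col1a2 and Itga5 were lower in every Adrb3-/- ICH library than in every wild-type ICH library, as were 4.9% of all genes, and no member was higher in every one (4.9% of all genes). Without Adrb3-/- ICH replicate 3, 3 members passed the adjusted threshold (Adamts17 at -1.57, Col3a1 at -1.62 and Mmp12 at -1.51), as did 49 of all 674 genes. The Adrb3-/- ICH values left in that fit were 20 and 20 for Col3a1 and Mmp12, and 42.2 and 20 for Adamts17.

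The bright members leaned the other way in this comparison: 8 of 8 had a positive difference, with a median of 0.26, and 7 of 8 after centring each library. A bright gene had to exceed 123.6, the background of Adrb3-/- ICH replicate 1, so this choice of genes favours high values there. Itga5 (-0.42) and Col4a2 (-0.41) were above background in 10 of 11 libraries, fell short in that one and count as dim. Of all 339 bright genes 212 were positive, with a median of 0.11. With Adrb3-/- ICH replicate 1 and Adrb3-/- sham replicate 3 left out, 2 of 8 were positive and the median was -0.03. The dim members had a median of -0.68, compared with -0.43 for all 335 dim genes, and of -0.13 with values at 20 raised to their worth.

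The difference between the genotypes in the response to ICH (the interaction) was tested directly. No member or other gene passed the adjusted threshold (0%), and 2 members had an unadjusted p under 0.05 in limma, where 4.3% of all genes had. Both were negative, as for 3.41% of all genes, and none was positive, where 0.89% were. They were Col3a1 at -1.69 (SE 0.70, adjusted p = 0.888) and Col14a1 at -1.88 (SE 0.81, adjusted p = 0.888), which became -0.61 and -1.11 with values at 20 raised to their worth. For Itgam the interaction was 1.14 (SE 0.67, unadjusted p = 0.116, adjusted p = 0.888). Averaged over genotypes, ICH and sham differed in 0 members after adjustment (0% of genes), and Col14a1 (-1.08, SE 0.40, adjusted p = 0.882) and Mmp13 (-0.77, SE 0.34, adjusted p = 0.894) were lower at an unadjusted p under 0.05. At that limit 4.6% of all genes differed, 4.45% lower and 0.148% higher. Averaged over surgeries, genotype differed in 0 members after adjustment (0% of genes), and Col10a1 (-0.95, SE 0.32, adjusted p = 0.604) was lower at an unadjusted p under 0.05. At that limit 6.97% of all genes differed, 4.75% lower and 2.23% higher.

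The partners of these genes were taken from 2 lists, 44 other matrix proteins and proteases, of which 13 were measured and 12 tested, and 31 integrin ligands and partners, of which 9 were measured and tested. In the 7 comparisons Vcam1 alone among them passed the adjusted threshold, in 1 comparison. Vcam1, the ligand of VLA-4, lay at 594 and 245 in wild-type sham, 363, 447 and 619 in wild-type ICH, 872, 793 and 1633 in Adrb3-/- sham, and 186, 279 and 94.7 in Adrb3-/- ICH. Every Adrb3-/- sham library was above both wild-type sham libraries, as for 10.4% of all genes, by 1.45 on the log2 scale (SE 0.53, adjusted p = 0.968 in limma). Every Adrb3-/- ICH library was below every Adrb3-/- sham library, and Vcam1 fell by 2.61 on the log2 scale (SE 0.48, adjusted p = 0.0395 in limma). The direction held under every alternative run (-2.96 to -2.19), but the call was lost under 13 of them, with an adjusted p of up to 0.223, reached without Adrb3-/- sham replicate 3; it was also lost without Adrb3-/- sham replicate 1 (0.112) or 2 (0.109) or any 1 of the wild-type ICH libraries (0.0744 to 0.0784). Its receptor chains, chosen for this comparison after their values were seen, had a log2 change of -0.03 (95% interval -0.57 to 0.51) for Itga4 and of -0.01 (95% interval -0.51 to 0.49) for Itgb1. Vcam1 is also made by marrow macrophages and is itself 1 of the macrophage markers. Their sum, Vcam1 included, was 1850 to 3496 in Adrb3-/- ICH against 8879 to 16478 in Adrb3-/- sham. Of the 14 tested macrophage markers 6 passed the adjusted threshold in this comparison, Vcam1 among them, out of 7 of all 674 genes. The part of macrophages in the Vcam1 value was not tested. The lysosomal protease Ctsd was lower in the same comparison by -1.22 (SE 0.32, adjusted p = 0.120). It lay at 4007, 3767 and 6840 in Adrb3-/- sham, 2698, 1982 and 1517 in Adrb3-/- ICH, and 2009 to 2905 in the wild-type libraries. Ctsd was thus also higher in Adrb3-/- than wild-type sham, by 0.96. The matrix protein Tnc was lower in Adrb3-/- than wild-type ICH libraries by -1.65 (SE 0.67, adjusted p = 0.400). Its values were 157, 20 and 77.45 against 213, 187 and 199, and the 20, in replicate 2, can stand for any level under 103. None of these differences passed the threshold. Of the 12 tested matrix proteins and proteases 5 read higher and 7 lower after ICH in Adrb3-/- mice, and of the 9 ligands and partners 2 read higher and 7 lower. Of all 674 genes 222 read higher and 452 lower.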

How the data were processed

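The deposited signal values formed 1 table of 754 genes, 8 negative and 6 positive control probes in 12 libraries. Gene signals divide into whole counts by 1 factor per library (within 0.0045 up to 1000 counts), while genes under 20 counts were held at an unscaled 20 and controls stayed unscaled. The labels state no instrument, panel, scaling or software. Since a value at 20 hides its count, count models did not apply.

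Genes whose mean over 11 libraries exceeded the mean background of 52.2 were kept (674). On log2(value + 1), limma 3.58.1 in R 4.3.3 fitted 4 group means (lmFit, eBayes; 7 residual degrees of freedom; 7 comparisons), two-sided, with Benjamini-Hochberg adjustment over the 674 genes and a threshold of 0.05. The fit was tested on simulated data, but no outcome of that is given here. With 20 as the lowest value, a pseudocount of 1 alters changes little. A gene held at 20 can read below its true level where 20 counts are worth more, so falls of low genes can be overstated. Groups are called apart when no library of one reaches the other, a value at 20 being taken as anything from 0 to the worth of 20 counts. Levels are named for any member; changes for members with an unadjusted p under 0.05, up to 6 per comparison, and others only where said. The members and lists were chosen with earlier results of these data known. Libraries of a group were not duplicates (chi-square over degrees of freedom at least 7.34). No pairing by replicate number was seen: 2 of 15 same-numbered pairs had a correlation over 0.1 (range -0.42 to 0.15). The check uses deviations from means of few libraries, so it cannot show that same-numbered libraries were handled apart. Symbols and neighbours come from RefSeq's GRCm38.p6 table, where all 37 members were found. Alternatives covered the filter, pseudocount, values at 20, centring, array weights, libraries fitted and left out, and a replicate block.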

Additional observations from a re-analysis of the deposited data

How the results depend on the processing

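No member passed the adjusted threshold in any of the 7 comparisons as fitted, with all 12 libraries (593 genes and 22 members tested), with no filter, with the filter over 12 libraries, with log2(value + 20), with values at 20 raised to their worth, with median centring, with array weights, with the compared groups alone (fitted for the 4 comparisons between pairs of groups) or with 2 Adrb3-/- libraries left out. With one library left out at a time, the number of members called ranged from 0 to 3 for ICH against sham in Adrb3-/- mice and from 0 to 3 for Adrb3-/- against wild type after ICH, and it was 0 in the other 5 comparisons. Every member so called had at least 1 Adrb3-/- ICH value at 20 in that fit. For all genes, the 7 calls of ICH against sham in Adrb3-/- mice ranged from 0 to 50 with one library left out and from 0 to 13 in the other settings. No paired structure was found (0 of 11 libraries correlated best with one of their own number), and in limma the fit with a replicate block called 0 members in every comparison. The changes recomputed under the alternatives were those of members with an unadjusted p under 0.05 in their comparison, and that of Vcam1. Of these, 279 kept their direction and their side of the threshold, 4 passed it (all members) and none reversed; members named outside this rule did turn sign, such as Adam8, Itgam and Col4a1 in Adrb3-/- mice, and Col3a1 and Mmp12 passed outside it in single leave-out fits. Another 13, all of Vcam1 between ICH and sham in Adrb3-/- mice, no longer passed it, for example with 12 libraries (-2.61, adjusted p = 0.103), no filter (adjusted p = 0.0563), median centring (-2.57, adjusted p = 0.0687), the compared groups alone (adjusted p = 0.177) or the replicate block (adjusted p = 0.139). Members near 20 counts limit the depth of all collagen, laminin, Adamts and most Mmp results: in Adrb3-/- ICH replicate 2 a level under 103 was not measured.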
